A study of Mus musculus with 6 samples.

Results

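The receptor genes for cytokines of the IL-6, IL-13, IL-20 and IL-22 groups were followed in mouse keratinocytes, the main cells of the outer skin layer, grown in culture from embryos that lacked Ovol1 and Ovol2, lacked Ovol1 alone, or served as controls. Il22ra1, Il22ra2, Il10rb, Il20ra, Il20rb, Il4ra, Il13ra1, Il6ra, Il6st and Osmr were taken by their symbol in the platform annotation, each through its brightest probe set, and make up 10 of the 19938 genes tested. The choice used the identity of the genes and their mean level over the 6 arrays. Those levels are therefore given as a description only. The choice named no comparison between genotypes, but it was made with earlier results of these arrays known. For Il20rb, which probe set was brightest depended on the DKO arrays, as described below.

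The double knockout (DKO) group carried Ovol2flox/- with the K14-Cre transgene on an Ovol1-/- background. The Ovol1 knockout (KO) group was Ovol1-/-, so both mutant groups lacked Ovol1 in every cell. The control group came from Ovol2flox/+ animals that had either lost 1 copy of Ovol1 (Ovol1+/-) or carried K14-Cre. The control group was thus not wild type, and its cells with K14-Cre could lose 1 copy of Ovol2. The keratin 14 promoter that drives Cre is active in basal keratinocytes, so loss of Ovol2 depends on cells that use it. All animals were C57BL/6 embryos at E18.5, labelled female, and each array held RNA from 2 mice, with 2 arrays per group. The cells grew in culture for 2 to 5 days, received calcium, which sets off keratinocyte differentiation, and were kept for 3 to 5 more days. Both Ovol genes encode DNA-binding regulators of the zinc finger type, and the arrays asked how differentiating cells change when 1 or both are missing.

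Cytokine receptors of these families are built from paired chains. IL-22 binds Il22ra1 together with Il10rb, and Il22ra2 encodes a soluble protein without a membrane anchor that binds IL-22 and keeps it from the receptor. IL-20 and IL-24 use Il20rb with either Il20ra or Il22ra1, and IL-19 uses Il20rb with Il20ra. IL-4 and IL-13 act on epithelial cells through Il4ra with Il13ra1. IL-6 binds Il6ra, which then joins Il6st, also called gp130. Oncostatin M uses Osmr with the same Il6st. The membrane receptors signal through Janus kinases and STAT factors, and in skin these cytokines, many of them made by immune cells, act on keratinocytes during wound repair and inflammation.

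Values below are log2(intensity + 16) after quantile normalization, and genes count as called where limma gave an adjusted p below 0.05, adjusted over all genes. The arrays have no detection call, and changes are read between arrays. Where levels of different genes are set side by side, as in sums, percentiles or within-array differences, they describe signal only. They do not rank the RNA amounts of those genes. Neither target gene was called in any comparison, with log2 fold changes in DKO against control of 0.53 for Ovol1 (limma adjusted p = 0.301) and 0.04 for Ovol2 (adjusted p = 0.979). Whether their probe sets lie within the deleted parts is not given in the sources used here, so these genes do not check the labels. The sex-linked genes went against the female label on some arrays. The DKO arrays gave Xist values of 12.12 and 12.26, Ovol1 KO 1 gave 4.59 and Ovol1 KO 2 gave 11.97, whereas control arrays gave 4.71 and 4.65, and 3 Y-linked genes split the arrays in the opposite way. Sex and genotype therefore cannot be told apart between DKO and control. The keratinocyte label was borne out by the basal keratins Krt5, at 13.68 to 13.94, and Krt14, at 13.61 to 13.67, on all 6 arrays. Of 8 keratinocyte markers 6 were not called between DKO and control and 2 rose, the keratins of differentiating layers Krt1 (log2 fold change 4.15, SE 0.64, adjusted p = 0.0222) and Krt10 (4.14, SE 0.37, adjusted p = 0.00352). Krt1 was at 14.70 and 12.40 in DKO, against 8.97 to 9.48 on the other 4 arrays, so these markers moved with the receptor genes that rose. Of 12 markers of leukocytes, which carry many of the same receptors, 11 were not called between DKO and control. The other 1, Kit, fell, and it also stands among the melanocyte markers below. The sum of the normalized intensities of the 12 leukocyte markers (each + 16) ranged from 5236 to 5814 in DKO, 4305 to 6516 in Ovol1 KO and 4942 to 7278 in control. Cd68 held most of this sum, at 11.91 and 12.05 in DKO, 11.37 and 12.26 in Ovol1 KO and 11.67 and 12.52 in control. Ptprc lay at 6.69 to 6.97 on the 6 arrays, so the sum mostly follows Cd68. The sum of 8 fibroblast markers ranged from 3405 to 4397 in DKO, 1648 to 2293 in Ovol1 KO and 1874 to 2440 in control. Of these 8, 7 were not called between DKO and control and 1, Pdgfra, fell by 1.06 on the log2 scale (SE 0.18, adjusted p = 0.0309). Thy1 held most of the sum in DKO and was not called (adjusted p = 0.179), at 10.96 and 11.23 in DKO, 9.36 and 7.84 in Ovol1 KO and 9.86 and 8.12 in control, while Col1a1 lay at 8.47 and 8.91, at 8.60 and 8.44, and at 8.43 and 8.55 in the same groups. In replicates 1 and 2, the sum of 8 melanocyte markers was 2003 and 1209 in DKO, 6857 and 1625 in Ovol1 KO and 5250 and 1537 in control. That of 5 endothelial markers was 457 and 444 in DKO, 1419 and 773 in Ovol1 KO and 1889 and 739 in control. Replicate 1 was thus the higher array in each group for both sums. Of the 5 endothelial markers, Kdr was the brightest on each Ovol1 KO and control array. Kdr lay at 6.79 and 6.65 in DKO, 9.945 and 8.63 in Ovol1 KO and 10.49 and 8.51 in control. In DKO against control its log2 fold change was -2.78 (limma adjusted p = 0.0897), and that of Pecam1 was -1.115. Those of Cdh5, Tek and Emcn were 0.09, -0.03 and 0.28, and limma called 0 of the 5. All 8 melanocyte markers had negative log2 fold changes in DKO against control, and only Kit was called. No marker of these lists was listed at 0, and their part in the results below was not tested.

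In DKO keratinocytes, 5 of the 10 receptor genes were called higher than in control and 0 were called lower, where 0.943% of all genes were called higher, 2.26% lower and 3.2% in either direction. The 5 were Il22ra2, Il20rb, Il13ra1, Il6ra and Il6st, with rises between 2.19-fold and 13.2-fold. Il22ra1, Il10rb, Il20ra, Il4ra and Osmr were not called. The same 5 passed 2-fold, as did 5.79% of all genes by size. The median log2 fold change of the 10 genes was 0.83, against 0.02 over all genes tested. In DKO against Ovol1 KO, 4 were called higher and 0 lower, with 0.657% of all genes called higher, 1.49% lower and 2.15% in either direction, and 5.13% past 2-fold by size. In Ovol1 KO against control limma called 0 of the 10, and 0 of them had an unadjusted p below 0.05. Over all genes limma called 0% in that comparison, and 0.813% had an unadjusted p below 0.05. The 2 comparisons of DKO share the DKO arrays, and the 2 comparisons with control share the control arrays. In such cultures, fewer cells of a type and less RNA per cell cannot be told apart.

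**Figure D1:**
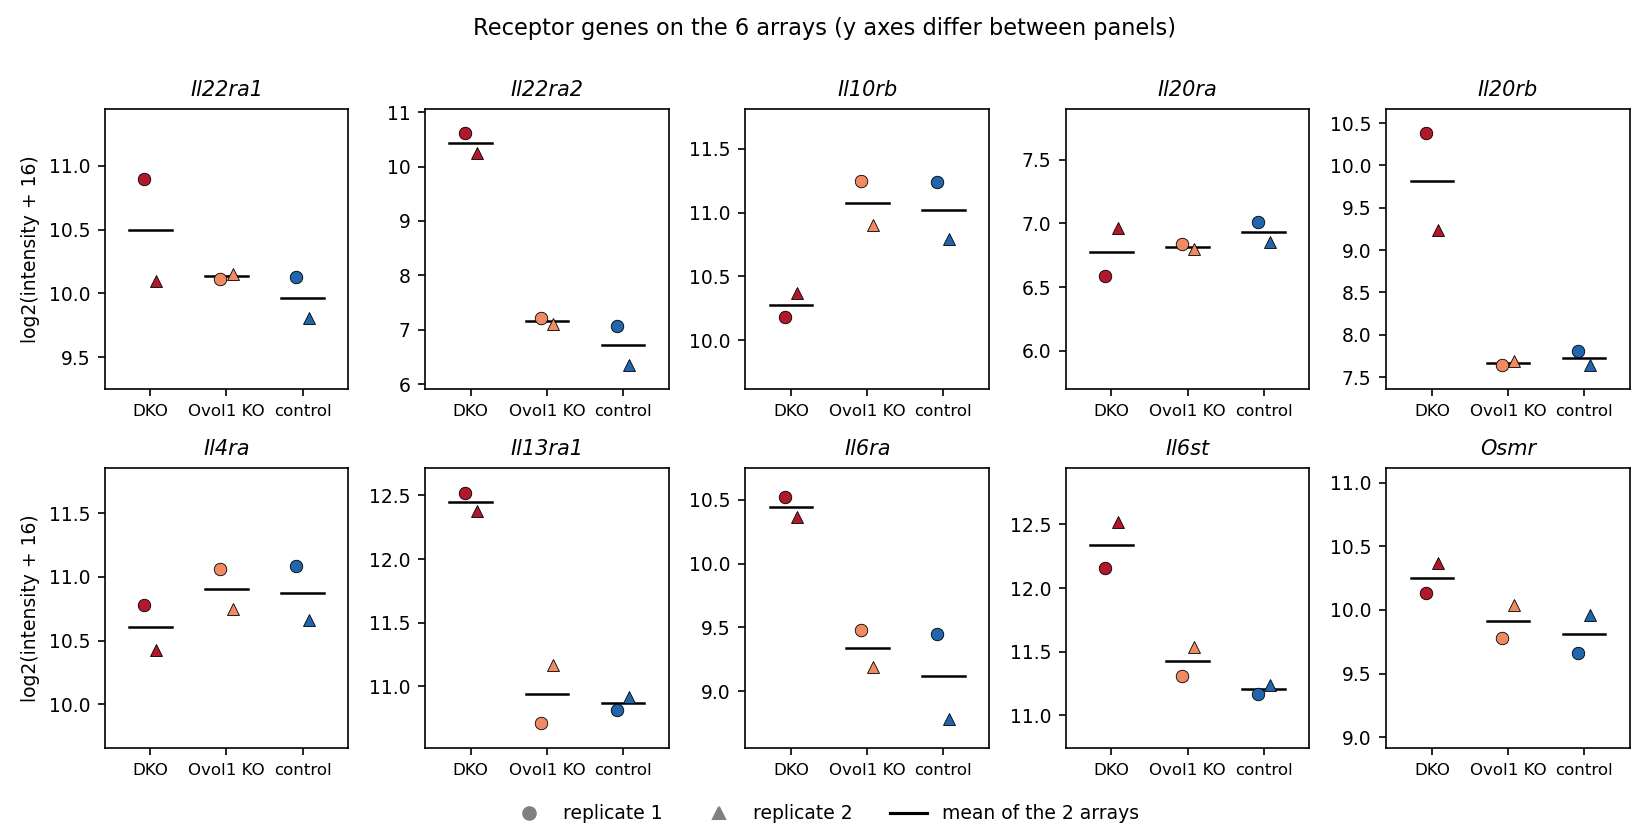
Level of each of the 10 receptor genes, as log2(intensity + 16), on the 2 arrays of the DKO, Ovol1 KO and control groups (circles, replicate 1; triangles, replicate 2; bars, group means). For Il22ra2, Il20rb, Il13ra1, Il6ra and Il6st both DKO arrays stand clear above the other 4 arrays, while both DKO arrays of Il10rb lie below them.

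The promoters of called receptor genes are shown because these genes rose in the same arrays. They are RefSeq windows of assembly GRCm38.p6 that run from 250 bases before to 50 bases after a start site. Windows were found for 8 of the 10 genes, and for 4 of the 5 called ones. Capitals mark CAGGTG on either strand, the E-box letters that Zeb and Snail repressors read. The window of Il20rb is chr9:100486424-100486723 on the minus strand, that of Il13ra1 chrX:36111858-36112157 on the plus strand, that of Il6ra chr3:89913147-89913446 on the minus strand and that of Il6st chr13:112463820-112464119 on the plus strand.
Il20rb: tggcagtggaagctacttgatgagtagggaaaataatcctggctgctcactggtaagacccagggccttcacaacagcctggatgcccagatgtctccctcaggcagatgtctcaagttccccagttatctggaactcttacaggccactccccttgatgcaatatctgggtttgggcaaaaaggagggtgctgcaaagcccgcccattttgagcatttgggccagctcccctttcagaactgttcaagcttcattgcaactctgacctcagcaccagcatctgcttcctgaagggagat
Il13ra1: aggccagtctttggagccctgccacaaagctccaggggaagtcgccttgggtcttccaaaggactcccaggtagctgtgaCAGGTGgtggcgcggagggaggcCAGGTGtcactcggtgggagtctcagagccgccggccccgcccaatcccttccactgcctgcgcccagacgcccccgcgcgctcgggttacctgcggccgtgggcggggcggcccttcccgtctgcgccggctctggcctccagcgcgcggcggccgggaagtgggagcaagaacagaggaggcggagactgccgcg
Il6ra: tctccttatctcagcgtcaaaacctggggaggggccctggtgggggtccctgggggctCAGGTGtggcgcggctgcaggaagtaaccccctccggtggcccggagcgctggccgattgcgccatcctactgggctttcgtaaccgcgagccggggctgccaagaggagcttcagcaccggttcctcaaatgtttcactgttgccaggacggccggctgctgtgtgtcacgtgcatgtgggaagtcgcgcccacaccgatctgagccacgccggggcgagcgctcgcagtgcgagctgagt
Il6st: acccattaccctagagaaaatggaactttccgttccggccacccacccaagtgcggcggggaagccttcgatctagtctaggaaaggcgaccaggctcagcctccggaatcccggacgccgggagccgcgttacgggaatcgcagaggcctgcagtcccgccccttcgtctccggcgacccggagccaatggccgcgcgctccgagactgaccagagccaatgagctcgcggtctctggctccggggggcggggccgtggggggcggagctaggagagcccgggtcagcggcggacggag

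The search covered both strands of the 8 windows. CAGGTG lay in 2 of them, Il13ra1 at positions -170 and -147 from the start site and Il6ra at -192, and in 20.2% of 32851 promoter windows. CCGTTA, the core of the site that OVOL proteins bind, lay in 0 of the 8 and in 2.76% of all windows. The AP-1 site TGANTCA lay in 3, those of Il22ra1, Il20ra and Osmr, and in 7.81% of all windows, and none of these 3 genes was called. The STAT site TTCNNNGAA lay in 0 of the 8 and in 8.3% of all windows. No motif overlapped another, and a match is a description of these letters only.

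The IL-22 system showed its widest change in the soluble binding protein. Il22ra2 lay at 10.62 and 10.26 in the DKO arrays, at 7.21 and 7.10 in the Ovol1 KO arrays and at 7.08 and 6.36 in the control arrays. Both DKO arrays stood far above the other 4, which lay within 1 log2 unit of each other. As deposited, the intensity of Il22ra2 was 1588.7 and 1143.2 in DKO, 141.3 and 116.3 in Ovol1 KO and 112.9 and 66.4 in control. On the Ovol1 KO and control arrays Il22ra2 thus lay near Il20ra, which was at 6.80 to 7.01 there. No detection call separates signal from background at that level. Il22ra2 rose by a log2 fold change of 3.72 in DKO against control (SE 0.27, 95% interval 3.07 to 4.37, limma adjusted p = 0.00173), which is 13.2-fold and the rise ranked 21 among 19938 genes. It also rose, by 3.28, over the Ovol1 KO level (SE 0.27, adjusted p = 0.00252). The rise was called with each of the 6 arrays left out in turn, in both comparisons, and ranged from 3.36 to 4.08 against control. In Ovol1 KO against control its log2 fold change was 0.44 (95% interval -0.21 to 1.08, adjusted p = 1).

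The chains of the IL-22 receptor itself were not called. Il22ra1, the chain that gives the receptor its cytokine, lay at 10.89 and 10.10 in DKO, 10.12 and 10.15 in Ovol1 KO and 10.13 and 9.80 in control. DKO 1 was the high array and DKO 2 lay among the others, so the groups overlapped. Its log2 fold change in DKO against control was 0.53 (SE 0.28, 95% interval -0.13 to 1.19, adjusted p = 0.48). A further, dimmer probe set of Il22ra1 gave 0.19, again with DKO 1 as its highest array. The within-array log2 difference of Il22ra2 and Il22ra1 was -0.28 and 0.16 in DKO, -2.91 and -3.05 in Ovol1 KO and -3.06 and -3.45 in control. An exact two-sided permutation test of 2 arrays against 2 gave p = 0.333 for DKO against control, the smallest value this design allows. Il10rb, the chain shared with the IL-10 and interferon lambda receptors, lay at 10.18 and 10.37 in DKO, 11.25 and 10.90 in Ovol1 KO and 11.24 and 10.80 in control. Both DKO arrays lay below the other 4. Its log2 fold change was -0.74 against control (SE 0.21, 95% interval -1.24 to -0.24, adjusted p = 0.147), and with Ovol1 KO in place of control it was -0.80 (SE 0.21, adjusted p = 0.142). Neither passed the threshold over all genes, and leaving out single arrays gave adjusted p-values between 0.0714 and 0.574 against control. The groups of the 10 genes did not overlap in 7 cases in DKO against control, 6 higher and 1 lower, but 44.6% of all genes also had groups that did not overlap, 23.1% higher and 21.5% lower. In DKO against Ovol1 KO 6 were likewise apart and higher and 1 lower, where 42.2% of all genes were apart, 26.1% higher and 16% lower.

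Among the chains for IL-19, IL-20 and IL-24, Il20rb rose and Il20ra was not called. Il20rb, the chain common to both receptor forms, lay at 10.38 and 9.24 in DKO, 7.65 and 7.69 in Ovol1 KO and 7.81 and 7.65 in control. The DKO arrays differed from each other by more than 1 log2 unit, but both stood above the other 4, which lay close together. The rise was 2.08 in DKO against control (SE 0.35, 95% interval 1.25 to 2.92, adjusted p = 0.0299), or 4.24-fold, and 2.14 against Ovol1 KO (SE 0.35, adjusted p = 0.0341). The call against control was lost without either Ovol1 KO array (adjusted p = 0.0679 without Ovol1 KO 1 and adjusted p = 0.0664 without Ovol1 KO 2) and with only the 4 compared arrays (adjusted p = 0.0676). The value itself ran from 1.51 without DKO 1 to 2.66 without DKO 2. Against Ovol1 KO the call was lost without either Ovol1 KO array (adjusted p = 0.254 and 0.122). Il20rb has 3 probe sets, and the others, which were not used in the fit, gave 1.48 and 1.45 in DKO against control. The probe set used thus gave the largest rise of the 3. It was the brightest on both DKO arrays, but the one that gave 1.45 was brighter on each Ovol1 KO and control array. Its choice as the brightest therefore depended on the DKO arrays, and its rise may be overstated. With the mean of the 3 probe sets the rise was 1.67 (SE 0.30, limma adjusted p = 0.0352). In each of the 3, DKO 1 was the highest array and DKO 2 the second highest.

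**Figure D2:**
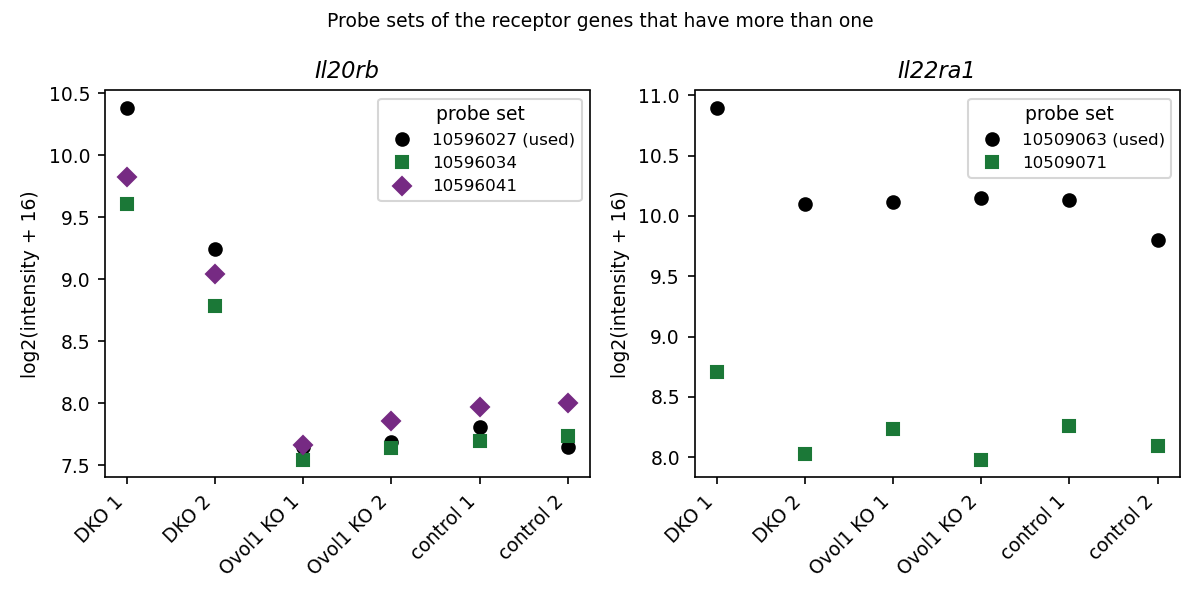
All probe sets of Il20rb (left, 3 probe sets) and Il22ra1 (right, 2 probe sets), as log2(intensity + 16) on each of the 6 arrays, with the probe set used marked. All 3 probe sets of Il20rb have DKO 1 and then DKO 2 on top, whereas DKO 2 lies among the Ovol1 KO and control arrays for both probe sets of Il22ra1.

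Il20ra, which pairs with Il20rb, lay at 6.58 and 6.96 in DKO, 6.83 and 6.80 in Ovol1 KO and 7.01 and 6.86 in control. The groups overlapped, and by mean level the gene stood at percentile 24.5 of all genes, where no detection call separates signal from background. Its log2 fold change in DKO against control was -0.16 (SE 0.18, 95% interval -0.58 to 0.26, adjusted p = 0.804). Without DKO 1 it was 0.03.

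For IL-4 and IL-13, Il13ra1 rose while its partner Il4ra was not called. Il13ra1, the IL-13 binding chain, lay at 12.52 and 12.38 in DKO, 10.71 and 11.17 in Ovol1 KO and 10.82 and 10.92 in control. Both DKO arrays lay more than 1 log2 unit above the other 4. The rise was 1.58 in DKO against control (SE 0.18, 95% interval 1.16 to 2.00, adjusted p = 0.0071), or 2.99-fold, and 1.51 against Ovol1 KO (SE 0.18, adjusted p = 0.0101). The call against control was lost without DKO 1 (1.51, adjusted p = 0.0605), and that against Ovol1 KO without either DKO array (adjusted p = 0.0793 and 0.0576). Il13ra1 lies on the X chromosome, and the DKO arrays had high Xist and the control arrays did not. Without Ovol1 KO 1, the comparison of DKO with Ovol1 KO is among arrays that all have high Xist, and there the log2 fold change was 1.28 (SE 0.16, adjusted p = 0.0542). Among protein-coding genes tested, the 659 X-linked ones had a median log2 fold change of 0.01 in DKO against control. It was 0.02 over the 17897 of the other chromosomes apart from Y. Of these X-linked genes 11 (1.67%) were called higher, against 175 (0.978%) of the others.

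Il4ra, the signalling chain shared by IL-4 and IL-13, lay at 10.78 and 10.43 in DKO, 11.07 and 10.75 in Ovol1 KO and 11.08 and 10.66 in control. The groups overlapped, and replicate 1 was the higher array in each of them. Its log2 fold change was -0.27 in DKO against control (SE 0.22, 95% interval -0.79 to 0.25, adjusted p = 0.702). The within-array difference of Il13ra1 and Il4ra was 1.74 and 1.95 in DKO, -0.35 and 0.42 in Ovol1 KO and -0.27 and 0.26 in control (exact permutation p = 0.333).

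Both chains of the IL-6 receptor rose. Il6st, the signal transducer that most of the IL-6 family shares, lay at 12.15 and 12.52 in DKO, 11.31 and 11.54 in Ovol1 KO and 11.17 and 11.24 in control. The groups were apart in all 3 comparisons. Its rise was 1.13 in DKO against control (SE 0.16, 95% interval 0.75 to 1.51, adjusted p = 0.0162), or 2.19-fold, and 0.91 against Ovol1 KO (SE 0.16, adjusted p = 0.042). The call against control was lost without DKO 2 (0.95, adjusted p = 0.0818). Against Ovol1 KO it was lost without any 1 of the 4 arrays compared, with values from 0.73 to 1.09, and without a variance trend (adjusted p = 0.0759).

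Il6ra, which binds IL-6, lay at 10.52 and 10.36 in DKO, 9.48 and 9.19 in Ovol1 KO and 9.45 and 8.78 in control. Both DKO arrays lay above the other 4, and control 2 was the lowest. The rise was 1.33 in DKO against control (SE 0.26, 95% interval 0.71 to 1.94, adjusted p = 0.0469), or 2.51-fold. This call stood close to the threshold. It was lost with any array but control 1 left out (adjusted p from 0.0815 to 0.223), with values down to 0.995 without control 2, and with only the 4 compared arrays (adjusted p = 0.0825). The difference of 1.11 from Ovol1 KO was not called (SE 0.26, adjusted p = 0.106). The within-array difference of Il6st and Il6ra was 1.63 and 2.15 in DKO, 1.83 and 2.35 in Ovol1 KO and 1.72 and 2.46 in control, with overlapping groups (exact permutation p = 0.667).

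Osmr, the oncostatin M chain that also serves the IL-31 receptor, lay at 10.13 and 10.36 in DKO, 9.78 and 10.04 in Ovol1 KO and 9.67 and 9.96 in control. Both DKO arrays were above the other 4 by a narrow margin, and replicate 2 was the higher array in each group. Its log2 fold change was 0.43 in DKO against control (SE 0.20, 95% interval -0.04 to 0.91, adjusted p = 0.402), and with Ovol1 KO in place of control it was 0.34 (SE 0.20, adjusted p = 0.545).

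**Figure D3:**
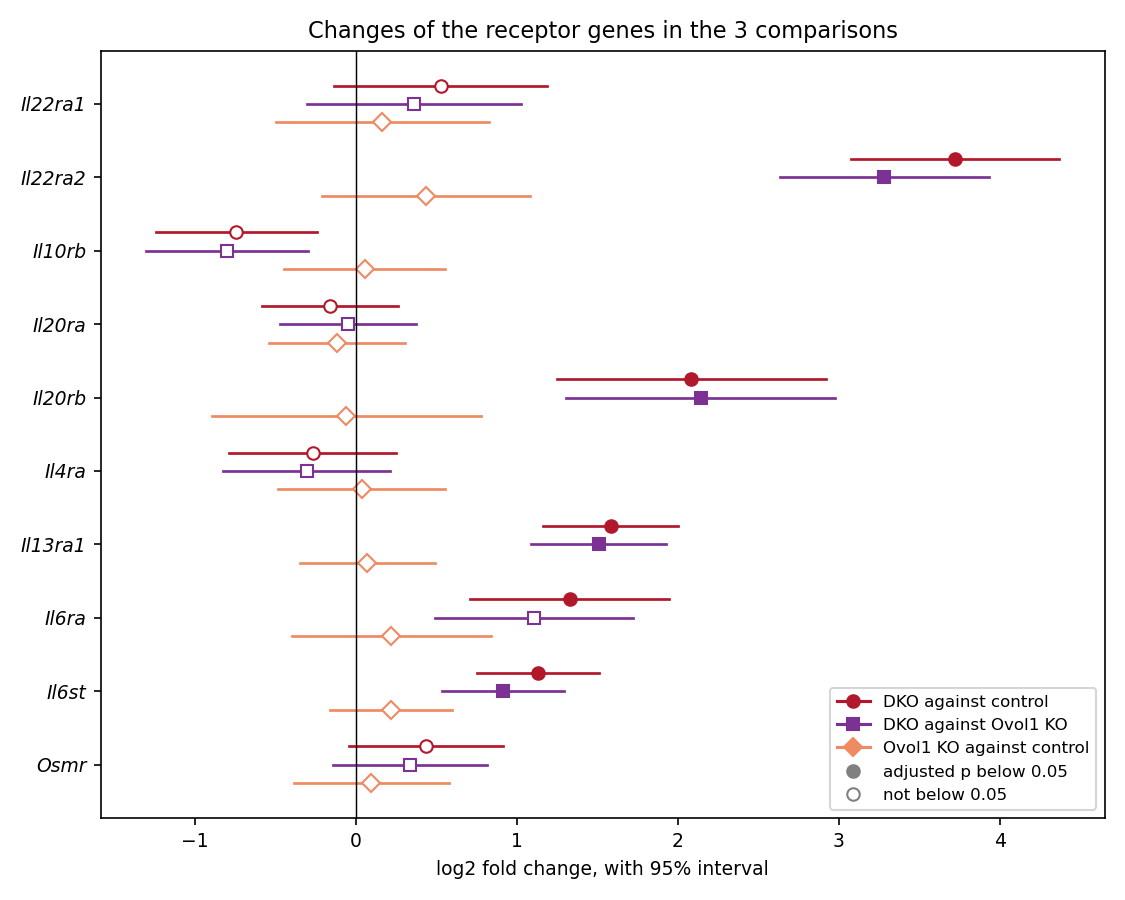
Log2 fold change of each receptor gene with its 95% interval in DKO against control, DKO against Ovol1 KO and Ovol1 KO against control (filled, adjusted p below 0.05; open, not below). The 5 filled points against control run from 1.13 for Il6st to 3.72 for Il22ra2, and all 10 points of Ovol1 KO against control lie between -0.12 and 0.44.

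With Ovol1 alone missing, the interval of every receptor gene included 0. In Ovol1 KO against control the log2 fold changes ran from -0.12 for Il20ra to 0.44 for Il22ra2, with a median of 0.09 against -0.06 over all genes. The intervals do not show equal levels, since the widest, that of Il20rb, reached from -0.89 to 0.78. The groups were apart for 3 of the 10 genes, Il22ra2 and Il6st higher and Il20ra lower, while 24.1% of all genes had groups that did not overlap in this comparison, 5.8% higher and 18.3% lower. For the genes called against control, the log2 fold changes in DKO against Ovol1 KO were 3.28 for Il22ra2, 2.14 for Il20rb, 1.51 for Il13ra1, 1.11 for Il6ra and 0.91 for Il6st. Of these, Il6ra was not called (limma adjusted p = 0.106). Apart from Ovol2, DKO and Ovol1 KO also differ in K14-Cre, which is described for DKO and not for Ovol1 KO. Some control animals are described with K14-Cre as well. Xist was at 12.12 and 12.26 in DKO but at 4.59 and 11.97 in Ovol1 KO. The part of each in these differences was not tested.

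Several of the receptor genes have other receptor genes as neighbours. In RefSeq GRCm38.p6 the class II receptor genes Ifngr1, Il22ra2 and Il20ra follow each other on chromosome 10 with 0 protein-coding genes between them. Ifngr1, which encodes the binding chain of the interferon gamma receptor, rose by 1.46 in DKO against control (SE 0.19, adjusted p = 0.0122), lying at 11.43 and 11.69 in DKO, 10.01 and 10.39 in Ovol1 KO and 10.07 and 10.13 in control. Of this run of 3, Ifngr1 and Il22ra2 were called and Il20ra was not. The call of Ifngr1 was lost without either DKO array, with adjusted p up to 0.0786. On chromosome 16 Ifnar2, Il10rb, Ifnar1 and Ifngr2 form a similar run, where the log2 fold change was 0.53 for Ifnar2, -0.74 for Il10rb, -0.01 for Ifnar1 and -0.19 for Ifngr2, with 0 called. Il6st is followed by Il31ra on chromosome 13, whose log2 fold change was -0.01, and Osmr by Lifr on chromosome 15, with 1.40 (SE 0.35, adjusted p = 0.0996).

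Other genes of these pathways are given by count beside the 3.2% of all genes called in DKO against control. Of 13 other receptor chains measured, Ifngr1 rose, 0 fell and 12 were not called in DKO against control, with a median log2 fold change of -0.01. Among 14 ligand genes limma called 0, while 2 had unadjusted p-values below 0.05, and the median was -0.11. The smallest p-values were those of Clcf1, an IL-6 family cytokine, with a log2 fold change of -1.11 (adjusted p = 0.14), and Lif, the leukaemia inhibitory factor, with -0.56 (adjusted p = 0.193). Il24, a ligand of Il20rb receptors named here only after its values were seen, was at 6.67 and 6.65 in DKO, 10.05 and 7.40 in Ovol1 KO and 9.57 and 7.58 in control. Both DKO arrays lay below the other 4, but replicate 1 stood far above replicate 2 in both other groups, and its log2 fold change of -1.91 was not called (SE 0.91, adjusted p = 0.412).

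Among 9 Janus kinase and STAT genes limma called 0, 2 had unadjusted p-values below 0.05, and the median was 0.35. Stat3, the main STAT of the IL-6 and IL-22 receptors, lay at 12.09 and 11.93 in DKO, 11.55 and 11.80 in Ovol1 KO and 11.48 and 11.49 in control, a log2 fold change of 0.52 against control (SE 0.13, adjusted p = 0.106). Stat5a had 0.89 (adjusted p = 0.231). Of 16 SOCS, PIAS and phosphatase genes, most of which restrain this signalling, limma called 0, while 4 had unadjusted p-values below 0.05, and the median was 0.08. Socs2 had a log2 fold change of 1.88 (adjusted p = 0.0965) and Socs6 of -0.72 (adjusted p = 0.118).

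Genes linked to the output of these receptors are counted beside the 0.943% of all genes called higher and 2.26% called lower. Of 20 genes linked to STAT3 in epidermis, 1 rose, 1 fell and 18 were not called, with a median of -0.12. Bcl3, an IkB family regulator, rose by 0.78 (SE 0.14, adjusted p = 0.0404), and Pim1, a kinase gene, fell by 0.96 on the log2 scale (SE 0.17, adjusted p = 0.036), lying at 9.98 and 10.27 in DKO, 10.53 and 10.75 in Ovol1 KO and 11.06 and 11.12 in control. Both lost their call with any single array left out, with adjusted p up to 0.184. Of 14 genes linked to IL-4 and IL-13, 1 rose, 1 fell and 12 were not called, with a median of 0.03. Postn, which encodes the matrix protein periostin, rose by 4.16 (SE 0.46, adjusted p = 0.00704), and Arg1, the arginase gene, fell by 4.80 on the log2 scale (SE 0.81, adjusted p = 0.0299). Arg1 lay at 9.06 and 6.14 in DKO, 12.22 and 12.58 in Ovol1 KO and 12.20 and 12.60 in control. Postn lost its call without DKO 1 (adjusted p = 0.0537), and Arg1 lost its own without either Ovol1 KO array (adjusted p = 0.068 and 0.0666), with only the 4 compared arrays (adjusted p = 0.068) and with robust eBayes (adjusted p = 0.135). The lists overlap: Il4ra, Il13ra2, Socs1 and Cish stand both here and in another list, and Socs3 and Il24 stand both in the STAT3 list and in another.

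**Figure D4:**
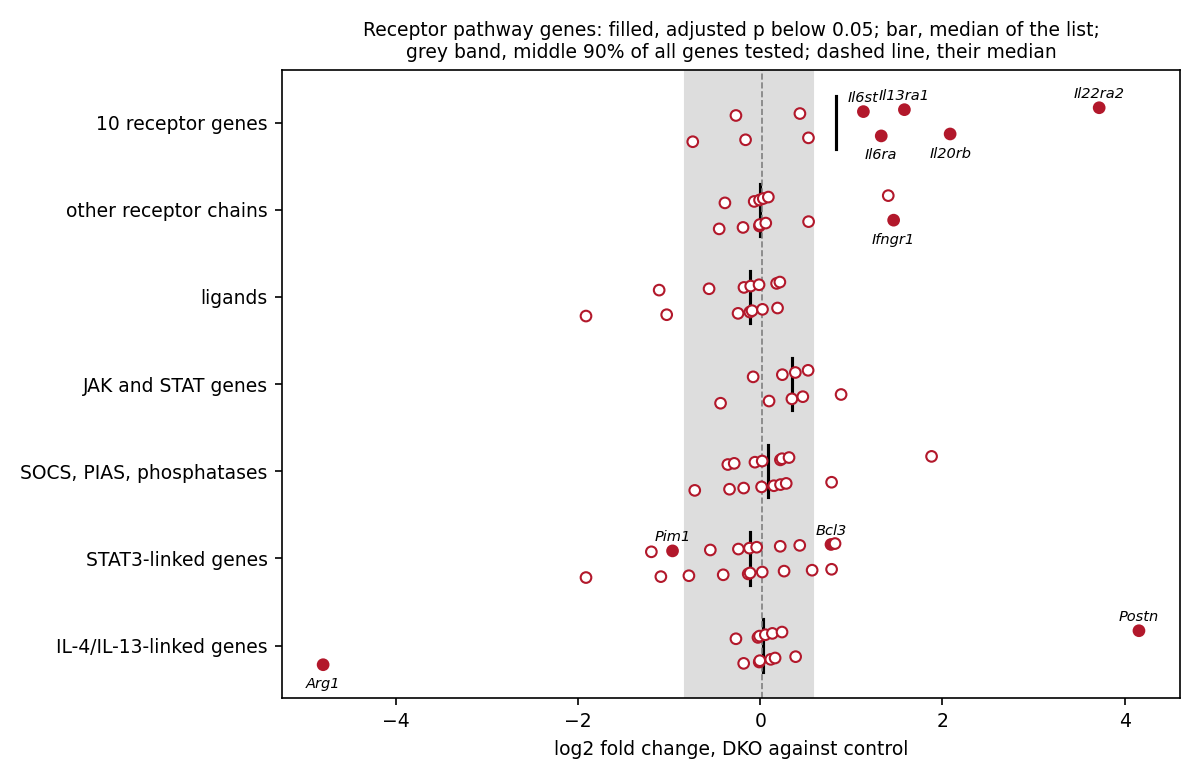
Log2 fold change in DKO against control of every measured gene of 7 lists (filled, adjusted p below 0.05; bars, list medians), with the middle 90% of all genes tested as a grey band from -0.83 to 0.58. The 5 called receptor genes lie right of the band, the median of the 10 receptor genes is 0.83, and the medians of the other lists run from -0.12 to 0.35.

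**Figure D5:**
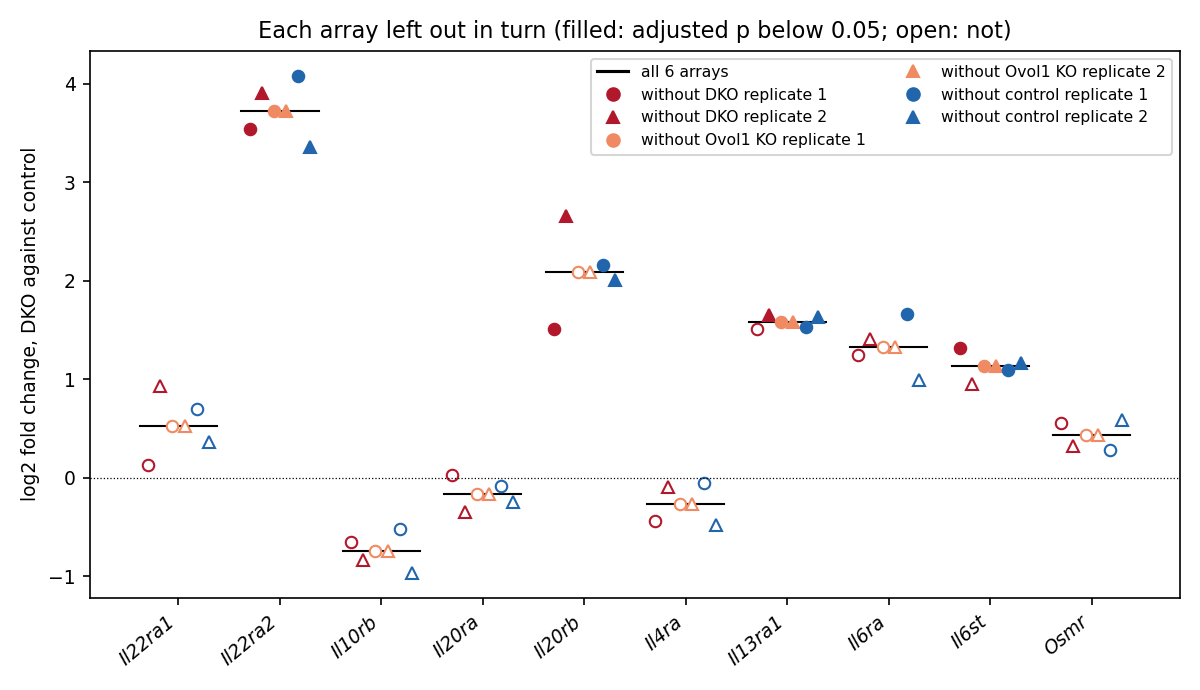
Log2 fold change of each receptor gene in DKO against control with all 6 arrays (bar) and with each array left out in turn (points; filled, adjusted p below 0.05). Il22ra2 stays filled in all 6, between 3.36 and 4.08, and Il6ra is filled only without control 1, at 1.66.

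The genes whose pattern over the 6 arrays was most like that of each called receptor gene were found by the root mean square difference of their centred log2 values. For Il22ra2 these were Igfl3, Cdhr1 and Pla2g2d, at 0.33, 0.35 and 0.35 log2 units, where the spread of Il22ra2 itself was 1.68. For Il20rb they were Sox6, a transcription factor gene, Fez1 and the potassium channel gene Kcnj2, at 0.09, 0.11 and 0.19, against a spread of 1.05. For Il13ra1 they were Ust, Bcam and Slco3a1, at 0.06, 0.11 and 0.12, against 0.74. For Il6ra they were Get1, the chemokine gene Cxcl14 and Ephb6, at 0.11, 0.14 and 0.14, against 0.62. For Il6st they were Gclm, Marcks and Sap30, each at 0.09, against 0.51. These genes share the 6 arrays with the receptors and were picked from all genes for their likeness, so the values describe the arrays.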

How the data were processed

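Affymetrix whole-transcript arrays of 6 pools were analysed, 2 per group. The authors deposited linear intensities, 1 for each of 35556 probe sets. Affymetrix Expression Console 1.1.1 and PLIER 2.0 are named, with no role, per the submitters' processing notes. How background was corrected and arrays were normalized is not given in the sources used here. Median intensities ran from 174.2 to 203.6, and the number of arrays limits the precision.

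From the deposited intensities log2(intensity + 16) was computed and quantile-normalized, since quartiles differed by up to 0.218 between arrays. The offset makes fold changes of dim genes understated. Probe sets with 1 gene symbol (21789) gave 19938 genes, the brightest probe set standing for each. In limma 3.58.1 (R 4.3.3) group means were estimated jointly from the 6 arrays by lmFit, and eBayes used a trend of variance on level, 3 residual and 3.89 prior degrees of freedom, and Benjamini-Hochberg adjustment over all genes. The spread is pooled over the 3 groups. The fit was tested on simulated data. The labels call the arrays of a group biological replicates.

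The receptor genes and all lists were chosen with earlier results of these data known. Named were all 10 genes, called genes of each pathway list (at most 6, or the 2 smallest p-values where 0 were called) and the 3 most alike genes. Single marker genes were named after their values were seen. SDs and intervals refer to arrays. Alternatives were other offsets, no normalization, a dim filter, other eBayes settings, probe set means, the 4 compared arrays, the replicate number and each array left out.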

Additional observations from a re-analysis of the deposited data

How the results depend on the processing

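In DKO against control, 5 receptor genes were called higher with offsets of 1 and 64, with the values as deposited, without the dimmest 30% of genes (which removed Il20ra), with other eBayes settings, with probe set means and with the replicate number as a block. With only the 4 arrays compared, 3 were called higher. With each array left out in turn the count ran from 3 to 5, and it was 3 without either DKO or either Ovol1 KO array. In DKO against Ovol1 KO the count ran from 1 to 5 with arrays left out, being 1 without Ovol1 KO 1. Under all of these settings limma called 0 receptor genes lower, and 0 in either direction in Ovol1 KO against control, where 0 had an unadjusted p below 0.05 in the fit of all 6 arrays. The numbers of the labels did not pair the arrays throughout, as replicate differences correlated at 0.687 between Ovol1 KO and control, 0.151 between DKO and control and 0.087 between DKO and Ovol1 KO. With the replicate block, 5 receptor genes were called higher in DKO against Ovol1 KO, where 4 were called without it, the further one being Il6ra (adjusted p = 0.036). Over all genes the block gave 301 higher and 768 lower in DKO against control, where 188 and 451 were called without it, and 225 and 580 in DKO against Ovol1 KO, where 131 and 298 were called. The counts over all genes fell to 67 higher and 191 lower in DKO against control without DKO 1, and to 23 and 65 in DKO against Ovol1 KO without Ovol1 KO 1. The cause of these shifts was not tested. The sign of the 5 called changes held in all 15 alternatives. Il20ra has a signal too near the low end for its direction to be read.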
